A study of Mus musculus with 14 samples.

Results

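The comparison described here set the duodenal mucosa of mice 30 min into a high-fat (HF) meal directly against that of mice 30 min into a low-fat (LF) meal, without the fasting condition as a reference. Its members were the 2 arrays titled HF30min and the 2 arrays titled LF30min, 4 of the 14 arrays of the series, with all 45037 probe sets other than the Affymetrix controls. The mice were male C57BL6, 12 wks-old, and every group had been kept on the LF diet before being fasted for 12 h. The LF meal held 10% of its calories as fat, 70% as carbohydrate and 20% as protein. The HF meal held 60%, 20% and 20%. Feeding was ad libitum from the beginning of the meal to the sacrifice, so the comparison covered both what was eaten and how much. The mucosa was scraped from the first part of the small intestine, and 1 pool of RNA from 20 mice was made per group. Both arrays of a pool were technical replicates of that pool, so that each p-value below covered the spread between arrays and not that between mice. The other arrays, of a fasted pool and of LF and HF pools at 1 h and 3 h, entered the estimate of array error and are quoted where they show what a value at 30 min was next to.

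The duodenum receives gastric content through the pylorus and pancreatic juice and bile through the papilla, and its mucosa is lined by absorptive enterocytes with goblet, enteroendocrine and Paneth cells among them. Enterocytes take up fatty acids and repackage them as chylomicrons, take up glucose and galactose by sodium-coupled transport and take up fructose through its own carrier. Pancreatic acinar cells make the digestive enzymes and islet cells make insulin, amylin and pancreatic polypeptide. Both lie close to the duodenal wall in the mouse and are not part of the mucosa. Parietal and chief cells, which make acid and pepsinogen, belong to the stomach. A transcript known from any of these cells can, in scraped duodenum, come with more of the cells or with more RNA in each. For pancreatic enzymes the mucosa itself may be a further source, since the paper cites earlier work that found them in normal duodenal epithelium. The pools cannot tell these apart, and the cell of origin was not tested.

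The 4 arrays were of like quality. Their median log2 values were 4.48 to 4.52, and the arrays of a pool correlated at 0.996 for LF30min and 0.9971 for HF30min over probe sets, with a median SD of 0.083 and 0.0698. The 3' minus 5' difference of the beta-actin control was 0.50 on both LF30min arrays and 0.51 and 0.54 on the HF30min arrays. For Gapdh it was 0.095 and 0.03 at LF30min and 0.0008 and 0.03 at HF30min. Enterocyte transcripts defined the tissue in both pools. All 15 measured genes of the enterocyte list were bright, between 10.09 and 14.40 on the 4 arrays, and none was called different. Probe sets for olfactory receptors, which mucosa is not known to use, had a median of 3.49 and a highest value of 5.33. A log2 value under 6 was treated as near background. This cutoff was a fixed setting and lies above all of these, so that values between 5.33 and 6 exceed every olfactory receptor probe set.

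Modulated is used for a probe set whose pools differed at least 2-fold with an adjusted p under 0.05 in limma's moderated test. There were 28 such probe sets, or 0.0622% of those tested. Of these, 15 (0.0333%) were higher and 13 (0.0289%) lower at HF30min. The HF30min arrays did not overlap the LF30min arrays in any of the 28, a state shared by 39.6% of all probe sets. In the annotation, 21 of them belonged to a single gene, 1 to several trypsin genes and 6 to none, and the 21 stood for 17 genes, 9 higher and 8 lower. The higher genes were the islet genes Ins2, Iapp and Ppy, the parietal and chief cell genes Atp4a, Chia1 and Pgc, and Wfdc18, A2ml1 and Slc5a12. The lower genes were the acinar genes Cela3b, Sycn, Gp2, Pnliprp1 and Tmed6, together with Reg2, Hspa1b and Ankrd37. With no fold minimum, 199 probe sets (0.442%) had an adjusted p under 0.05. With 1 of the 4 arrays left out the number was 80 to 133. The lowest count, 80, was that without HF30min replicate 2. Without LF30min replicate 1 it was 93, and without HF30min replicate 1 it was 87. All these fits took array error from the other pools too. Fitted to the 4 arrays alone, 25 probe sets were modulated and 51 called with no fold minimum, and of 68 called genes followed one by one 25 were still called.

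**Figure D1:**
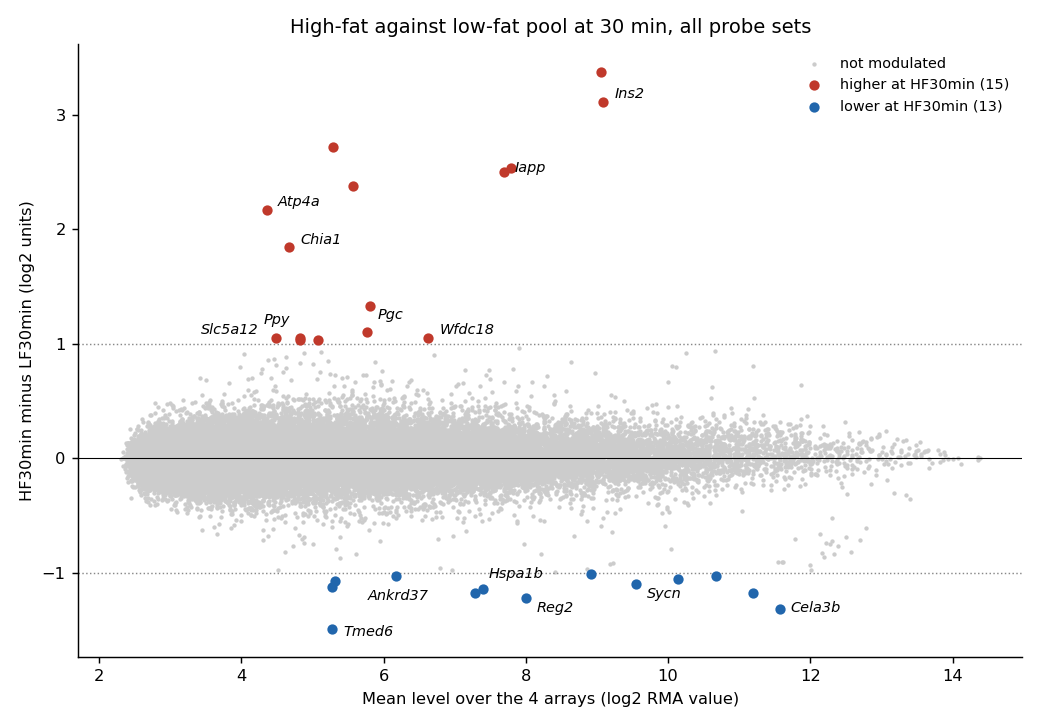
Each point is 1 of the 45037 probe sets, with its mean log2 value over the 4 arrays on the horizontal axis and HF30min minus LF30min in log2 units on the vertical axis. The dotted lines mark a 2-fold difference, and the 28 modulated probe sets are coloured, with 14 of the genes labelled. The higher points reach 3.38 and the lower ones -1.49.

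The largest differences of a named gene were in islet hormones. Ins2, which encodes insulin, read 7.50 and 7.57 on the LF30min arrays and 10.71 and 10.58 on the HF30min arrays. The fasting arrays lay between them, at 9.0 and 8.99, so that the pool after the LF meal was below and the pool after the HF meal above the fasted one. The log2 difference was 3.11 ± 0.09 (SE, 2 arrays against 2), an 8.64-fold difference (adjusted p = 7.5e-10). Ins2 had a single probe set, of the _x_at class, whose probes may be shared between genes. Whether it also read Ins1, the other insulin gene, was not tested. Iapp, which encodes amylin, the peptide secreted with insulin, read 6.18 and 6.70 at LF30min and 8.83 and 9.06 at HF30min, with 7.35 and 7.33 in the fasting pool. Its log2 difference was 2.50 ± 0.14 (adjusted p = 1.1e-06), and the other 3 of its 4 probe sets, all modulated, gave 1.04 to 2.54. The order LF30min, Fasting, HF30min was thus the same for both genes. Ppy, pancreatic polypeptide, read 4.39 and 4.19 at LF30min and 5.38 and 5.30 at HF30min. It was higher in the HF pool (log2 difference 1.05 ± 0.09, adjusted p = 7e-05) with both pools near background, so that no fold is given.

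These 3 were the called members among the 9 measured genes of the islet list, against 0.297% of all 18193 genes called higher at an adjusted p under 0.05. The other 6, among them G6pc2, Slc30a8, Nkx6-1 and Ucn3, which mark beta cells, lay between 2.47 and 5.53 on the 4 arrays, all under 6. Their log2 differences ranged from -0.25 to 0.13. The median over the list was 0.12, against 0.002 over all genes, and it ranged from -0.06 to 0.29 when an array was left out. Gcg, which encodes glucagon in alpha cells and the incretin GLP-1 in enteroendocrine cells, read 5.53 and 5.68 at LF30min and 6.44 and 6.29 at HF30min. Its log2 difference of 0.76 ± 0.12 passed the test (adjusted p = 0.012), and it did not without LF30min replicate 1, HF30min replicate 1 or HF30min replicate 2, where the adjusted p reached 0.15 and the difference was 0.69 to 0.83, nor with the 4 arrays alone. It was the only called gene of the 24 enteroendocrine hormones and granins. Cck read 7.58 and 7.77 at LF30min and 7.67 and 7.60 at HF30min, with overlapping arrays and a difference of -0.04 (95% interval -0.26 to 0.17). For Gip, the incretin of the upper intestine, the difference was -0.17 (95% interval -0.35 to 0.01).

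Of 9 measured genes of the acid- and pepsin-secreting cells of the stomach, 5 were higher after the HF meal, most of them at levels near background. Atp4a, the catalytic subunit of the gastric proton pump, read 3.40 and 3.14 at LF30min and 5.58 and 5.30 at HF30min. The fasting arrays, at 3.49 and 3.23, were at the LF30min level. The log2 difference was 2.17 ± 0.18 (adjusted p = 3.7e-05). Chia1, acidic mammalian chitinase, read 3.85 and 3.66 at LF30min and 5.78 and 5.41 at HF30min, a difference of 1.84 ± 0.15 (adjusted p = 3.8e-05). Pgc, which encodes the pepsinogen progastricsin, read 5.24 and 5.17 at LF30min and 6.24 and 6.38 at HF30min, and was at least 2.15-fold higher (log2 difference 1.10 ± 0.13, adjusted p = 0.00083). In the fasting pool Chia1 read 3.47 and 3.73 and Pgc 5.13 and 5.11, so for these too the HF30min arrays stood above both other pools. Atp4b, the beta subunit of the pump, was the member above background in both pools, at 6.47 and 6.06 at LF30min and 7.17 and 7.16 at HF30min. Its log2 difference was 0.90 ± 0.14 (adjusted p = 0.011). That call did not hold without LF30min replicate 2, HF30min replicate 1 or HF30min replicate 2, where the adjusted p reached 0.11 and the difference was 0.70 to 1.11, nor with the 4 arrays alone.

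Cblif, gastric intrinsic factor, was also called (difference 0.69, adjusted p = 0.02), though not without LF30min replicate 2 or HF30min replicate 2, where the adjusted p reached 0.24. In all, 5 of the 9 measured parietal and chief cell genes were called higher and none lower, where 0.297% of all genes were called higher. Without LF30min replicate 2 or HF30min replicate 2 there were 3, namely Atp4a, Chia1 and Pgc, as in the fit to the 4 arrays alone, and without HF30min replicate 1 there were 4. The list's median was 0.69, or 0.57 to 0.82 with an array left out. Kcne2, Slc26a7, Aqp4 and Pga5 were not called, with differences of -0.23 to 0.13 and all arrays between 2.89 and 4.73. Of the 14 measured genes of the stomach's surface mucous cells, 1 passed the test, Muc5ac, the main gastric mucin. It read 5.47 and 5.43 at LF30min and 6.40 and 6.19 at HF30min, at least 1.79-fold higher (log2 difference 0.84 ± 0.09, adjusted p = 0.00041). The other 13 had differences of -0.25 to 0.80, and the median was -0.03. The largest was that of the gastrokine Gkn3 (adjusted p = 0.059), whose second probe set, at 0.93, passed (adjusted p = 0.00051). Gkn1 had a difference of 0.47, Tff1 of -0.10 and Gkn2 of -0.09, and these 4 genes were named after their values had been seen. Fitted to the 4 arrays alone, Muc5ac had an adjusted p of 0.055. Tff2, the trefoil peptide of Brunner glands and mucous neck cells, was the only called gene of the 5 measured of its list. Its arrays read 11.55 and 11.54 at LF30min and 12.13 and 12.24 at HF30min (log2 difference 0.64 ± 0.08, adjusted p = 0.0024). Its adjusted p was 0.057 without HF30min replicate 2 and 0.11 with the 4 arrays alone. Against the fasting pool, at 8.58 and 8.44, both meal pools were far higher.

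**Figure D2:**
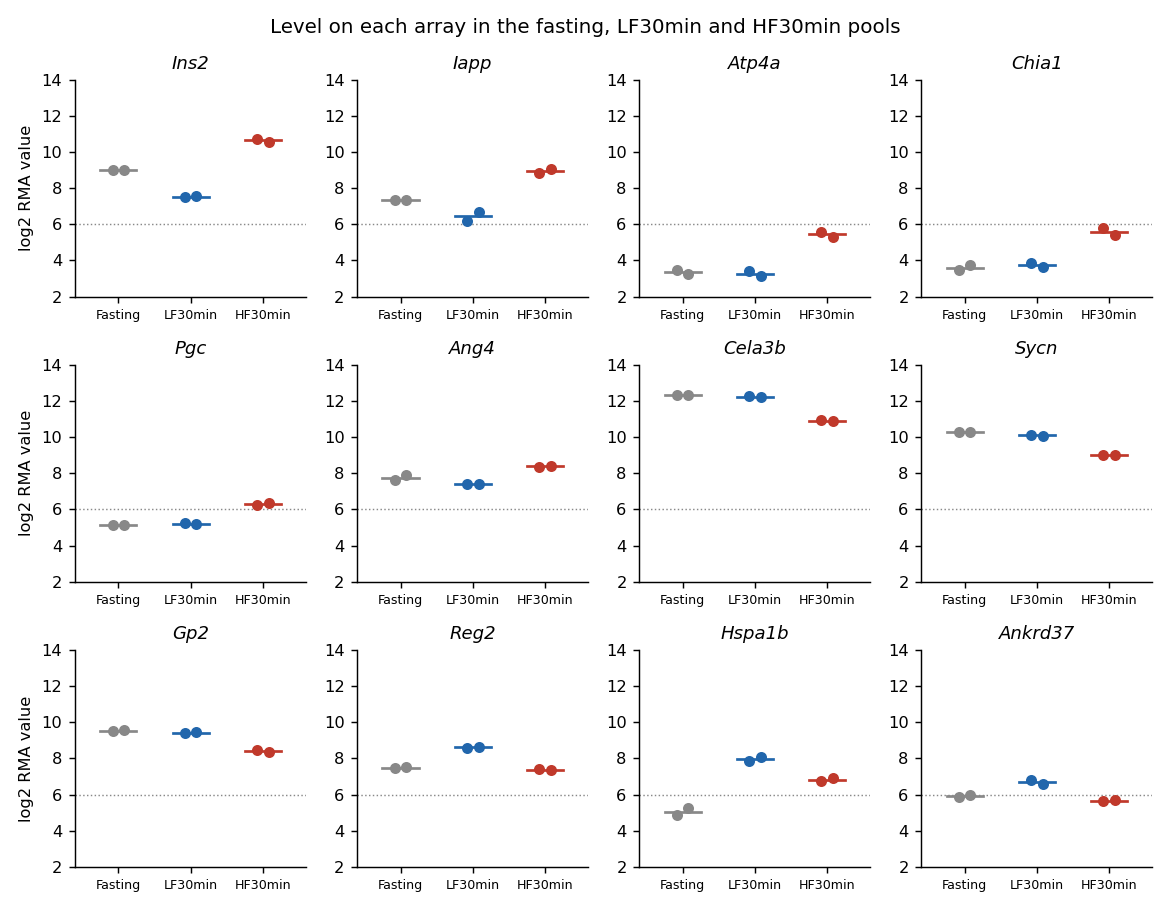
Log2 value of 12 genes on each array of the fasting, LF30min and HF30min pools, with points for arrays, a line for the mean of the pool and a dotted line at 6, under which values are near background. Ins2 and Iapp lie above the fasting pool at HF30min and below it at LF30min, Atp4a, Chia1 and Pgc stand apart at HF30min alone, and Cela3b, Sycn and Gp2 lie lower at HF30min than in both other pools.

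Pancreatic acinar genes were 5 of the 8 modulated genes that were lower after the HF meal. Cela3b, a pancreatic elastase, read 12.26 and 12.20 at LF30min and 10.95 and 10.88 at HF30min, with 12.31 on both fasting arrays. The LF30min pool was close to the fasting level and the HF30min pool below both. The log2 difference was -1.31 ± 0.08, a 2.49-fold difference (adjusted p = 1.3e-06). Its other 3 probe sets gave -1.18 to -0.35, and the smallest of these differences was in the brightest, which did not pass the test. Sycn, syncollin of the zymogen granule membrane, read 10.13 and 10.07 at LF30min and 9.0 on both HF30min arrays (log2 difference -1.10 ± 0.08, adjusted p = 9.3e-06). Gp2, the main glycoprotein of that membrane, read 9.40 and 9.44 at LF30min and 8.45 and 8.38 at HF30min (log2 difference -1.01 ± 0.08, adjusted p = 2.7e-05). Pnliprp1, a lipase-related protein of pancreatic juice, read 11.14 and 11.23 at LF30min and 10.19 and 10.13 at HF30min (log2 difference -1.03 ± 0.09, adjusted p = 3.8e-05). In all 3 the fasting arrays were again close to LF30min, at 10.30 and 10.28 for Sycn, 9.50 and 9.55 for Gp2 and 11.22 and 11.25 for Pnliprp1. Tmed6, of the TMED family of proteins that traffic secretory cargo, had the largest negative difference of a named gene. It read 5.88 and 6.16 at LF30min and 4.38 and 4.68 at HF30min, at least 2.81-fold lower (log2 difference -1.49 ± 0.14, adjusted p = 0.00013).

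Smaller differences ran through the acinar lists. The 4 lists together held 34 measured genes, of which 21 were called lower and none higher at an adjusted p under 0.05, where 0.253% of all genes were called lower. Of the 46 genes called lower in all, 21 were on these lists. The median difference was -0.75 over the 34 genes, with 32 below 0, against 0.002 over all genes. The median level of the 34 genes was 8.99 and 9.09 on the LF30min arrays, 8.42 and 8.32 on the HF30min arrays and 9.08 and 9.12 on the fasting arrays. Each of the 21 remained called with any 1 of the 4 arrays left out. In the fit to the 4 arrays alone 13 remained, and Cela2a, Ctrb1, Prss2, Prss3, Cpa1, Pnliprp2, Pdia2 and Serpini2 were not called. In this count Cela3b stood by its brightest probe set and was not called, and Sycn by 1 at -0.79.

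Of the 5 lipases and cofactors, 4 were lower. Cel, the bile salt-activated lipase, had a difference of -0.91 ± 0.08 and Clps, colipase, one of -0.90 ± 0.08, although the second probe set of Clps gave -0.24. Among the 11 proteases, 9 were lower, with Ctrl, a chymotrypsin-like protease, at -0.93 ± 0.08, Klk1, a tissue kallikrein, at -0.91 ± 0.08, Cpb1, a carboxypeptidase, at -0.83 ± 0.08 and Cela1, an elastase, at -0.82 ± 0.08. Klk1 had 4 probe sets, and the other 3 gave -0.92, -0.08 and 0.02. Trypsins, elastases and kallikreins are families of near copies, and probe sets may be shared between members. Rnase1, the pancreatic ribonuclease, was lower by a difference of -0.90 ± 0.08. Serpini2, a serpin of acinar cells, was at -0.96 ± 0.12. Cckar, the receptor through which cholecystokinin drives enzyme secretion, read 5.04 and 4.96 at LF30min and 4.10 and 3.96 at HF30min, near background in both (difference -0.98 ± 0.11, adjusted p = 0.00042). The transcription factors of the acinar cell, named after their values had been seen, were not called, with Ptf1a at -0.42, Bhlha15 at -0.16, Rbpjl at -0.14 and Nr5a2 at 0.27. With an array left out, Ptf1a ran from -0.78 to -0.06 and Rbpjl from -0.32 to 0.04. Of the 16 measured genes of their list, 11 reached a log2 value of 6 in a pool. The lack of a call therefore does not show that these factors were unchanged. Spink1, the trypsin inhibitor, was at 0.11, with 12.15 and 12.25 at LF30min and 12.29 and 12.32 at HF30min.

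Reg2, a secreted C-type lectin of the regenerating family made in the pancreas, was the called member among the 7 measured Reg genes. It read 8.58 and 8.63 at LF30min and 7.40 and 7.37 at HF30min (log2 difference -1.22 ± 0.09, 2.33-fold, adjusted p = 9.3e-06). Unlike the enzymes, its HF30min arrays were at the fasting level of 7.47 and 7.52 and its LF30min arrays above it. The other members had differences of -0.39 to 0.27, and Reg1, named after its value had been seen, had -0.04. Of all genes, 0.253% were called lower.

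**Figure D3:**
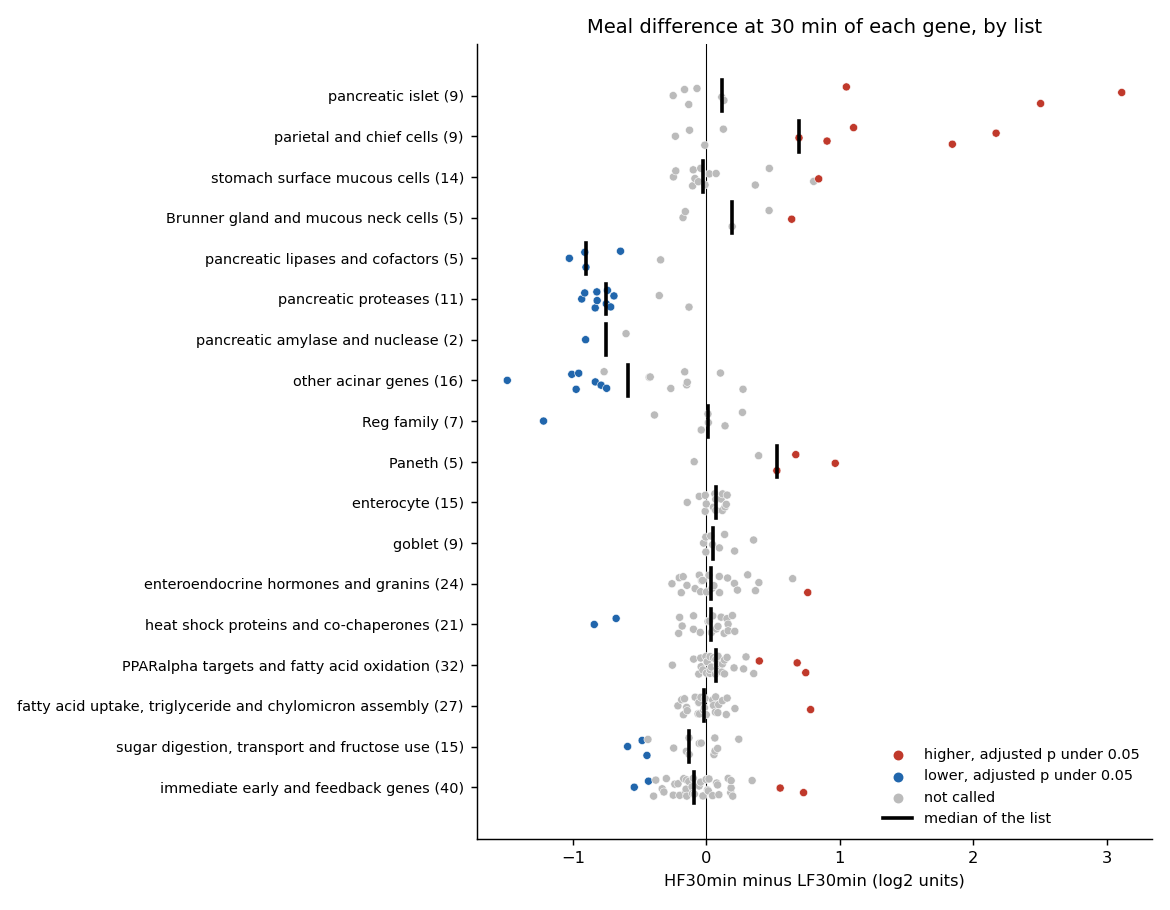
HF30min minus LF30min in log2 units for each measured gene of 18 lists, with the number of genes in brackets. Red and blue points were called higher and lower at an adjusted p under 0.05, grey points were not called, and black bars are medians. The 4 pancreatic enzyme and acinar lists lie to the left, with medians of -0.59 to -0.90, and the enterocyte and goblet lists lie around 0.

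The stress-responsive genes Hspa1b, Hspa1a and Ankrd37 were also lower in the HF pool. Hspa1b and Hspa1a encode the inducible HSP70 chaperone, which is switched on by heat shock factor through heat shock elements. Ankrd37 encodes an ankyrin-repeat protein and is a known target of the hypoxia-inducible factor, which reads ACGTG. Their promoters are shown because each is known for this kind of regulation. Each window runs from 250 bases before to 50 after the start of the gene on its own strand, from RefSeq on GRCm38.p6. Capitals mark GAANNTTC in the HSP70 genes and ACGTG in Ankrd37, searched on both strands. The windows are, for Hspa1a, chr17:34972107-34972406, for Hspa1b, chr17:34959189-34959488, and for Ankrd37, chr8:45999801-46000100, all on the minus strand.
Hspa1a: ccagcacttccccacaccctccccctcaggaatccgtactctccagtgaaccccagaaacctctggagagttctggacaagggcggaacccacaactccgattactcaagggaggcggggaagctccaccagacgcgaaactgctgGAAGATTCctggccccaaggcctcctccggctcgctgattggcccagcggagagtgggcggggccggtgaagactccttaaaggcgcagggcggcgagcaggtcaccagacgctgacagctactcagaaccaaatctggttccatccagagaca
Hspa1b: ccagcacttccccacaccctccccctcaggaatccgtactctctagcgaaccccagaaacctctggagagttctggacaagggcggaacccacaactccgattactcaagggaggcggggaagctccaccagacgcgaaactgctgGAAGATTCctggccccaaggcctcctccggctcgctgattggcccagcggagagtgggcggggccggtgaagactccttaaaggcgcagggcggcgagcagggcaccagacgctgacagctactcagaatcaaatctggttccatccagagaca
Ankrd37: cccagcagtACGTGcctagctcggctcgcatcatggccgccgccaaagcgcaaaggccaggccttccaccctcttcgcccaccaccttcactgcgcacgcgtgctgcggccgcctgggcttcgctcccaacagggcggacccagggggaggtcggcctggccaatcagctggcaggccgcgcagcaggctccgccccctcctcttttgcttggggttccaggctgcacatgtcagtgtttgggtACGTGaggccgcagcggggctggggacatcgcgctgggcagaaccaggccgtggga
The 2 HSP70 windows were identical at 296 of 300 bases, and each held GAANNTTC once, 104 bases before the start. Of 32544 distinct promoter windows, 7.89% held these letters. Counted by gene and not by window, 12 of the 18 heat shock list genes with a promoter held them. Ankrd37 held ACGTG at 241 and at 6 bases before the start, and 8.24% of all windows held it 2 or more times. A match is a description of the letters and was not tested as a binding site.

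Hspa1b read 7.86 and 8.08 at LF30min and 6.75 and 6.90 at HF30min, above the fasting arrays, at 4.88 and 5.23, in both pools. The log2 difference was -1.14 ± 0.11, 2.21-fold (adjusted p = 0.00018), and its other 2 probe sets gave -0.99 and -0.68. Hspa1a read 5.86 and 6.20 at LF30min and 5.19 on both HF30min arrays. Its log2 difference was -0.84 ± 0.16 (adjusted p = 0.034), a call lost without LF30min replicate 2, HF30min replicate 1 or HF30min replicate 2, where the adjusted p reached 0.22 and the difference was -1.01 to -0.67. Since both genes are close copies, their probe sets may read one another. They were the 2 called genes of 21 measured heat shock proteins and co-chaperones, where 0.253% of all genes were called lower. The median of that list was 0.04. In this count Hspa1b stood by its brightest probe set, at -0.68 (adjusted p = 0.026), and neither gene was called without LF30min replicate 2, HF30min replicate 1 or HF30min replicate 2, nor in the fit to the 4 arrays alone, whereas the probe set of Hspa1b at -1.14 was called in all of these fits. Hsph1 and Dnajb1, chaperones of the same response and named after their values had been seen, had differences of -0.21 and -0.18 and were not called. Ankrd37 read 6.79 and 6.59 at LF30min and 5.65 and 5.68 at HF30min, with the fasting arrays between them at 5.84 and 5.95. It was at least 2.04-fold lower (log2 difference -1.03 ± 0.10, adjusted p = 8.7e-05).

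Of 5 measured Paneth cell products, which defend the crypt base, 3 were higher after the HF meal by less than 2-fold. Ang4, an antimicrobial ribonuclease, read 7.43 and 7.41 at LF30min and 8.34 and 8.43 at HF30min (log2 difference 0.97 ± 0.11, adjusted p = 0.00058). Itln1, intelectin, read 7.68 and 7.82 at LF30min and 8.45 and 8.39 at HF30min (log2 difference 0.67 ± 0.09, adjusted p = 0.0022). Lyz1, the Paneth cell lysozyme, read 10.97 and 10.92 at LF30min and 11.48 and 11.47 at HF30min (log2 difference 0.53 ± 0.08, adjusted p = 0.0084), and did not pass when any 1 of the 4 arrays was left out (adjusted p up to 0.094, difference 0.51 to 0.55). The fasting arrays lay between the pools for all 3 genes. Of the 5 measured genes of the list these 3 were called, where 0.297% of all genes were called higher, and the median was 0.53, or 0.51 to 0.55 with an array left out, where 2 were called. In the fit to the 4 arrays alone Ang4 was called and Itln1 (adjusted p = 0.11) and Lyz1 were not. Lysozyme probe sets may read both copies of the gene, and Lyz2, the copy of macrophages, was also higher (difference 0.42 ± 0.08, adjusted p = 0.041), with that call lost when any 1 array was left out (adjusted p up to 0.27), with the replicate block and with the 4 arrays alone. Mmp7, which activates Paneth cell defensins, had a difference of 0.39 and was not called. The defensin Defa3 was at -0.09, or -0.23 to 0.05 with an array left out, and was not called either. Of the 5 genes, 4 reached a log2 value of 6 in a pool. Another defensin, Defa39, was not on the list and was higher, as given under other observations. None of the 9 goblet cell genes was called, and their median was 0.05.

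Of 32 measured targets of PPARα and genes of fatty acid oxidation, 3 were called higher and none lower, where 0.297% of all genes were called higher, and the median was 0.07. Of the 3, Vnn1 was called in every fit with 1 array left out, and none was in the fit to the 4 arrays alone. Vnn1, a pantetheinase, read 8.51 and 8.69 at LF30min and 9.32 and 9.37 at HF30min (log2 difference 0.74 ± 0.10, adjusted p = 0.0022). Acot1, a cytosolic acyl-CoA thioesterase, was near background at 4.31 and 4.39 against 4.87 and 5.19 (difference 0.68 ± 0.12, adjusted p = 0.024). Angptl4, an inhibitor of lipoprotein lipase, had a difference of 0.40 ± 0.08 (adjusted p = 0.041). Acot1 was not called without LF30min replicate 1, LF30min replicate 2 or HF30min replicate 2 (adjusted p up to 0.26, difference 0.52 to 0.84), and Angptl4 not when any 1 array was left out (adjusted p up to 0.27) or with the replicate number as a block. Cd36, the fatty acid translocase, was the called gene among 27 of fatty acid uptake, triglyceride and chylomicron assembly. It read 7.34 and 7.52 at LF30min and 8.19 and 8.24 at HF30min (log2 difference 0.78 ± 0.11, adjusted p = 0.0044), and was lost without LF30min replicate 1 or HF30min replicate 2 (adjusted p up to 0.079). Scd1, stearoyl-CoA desaturase, was the called gene of 14 in lipogenesis, at 6.14 and 5.90 against 6.70 and 6.67 (log2 difference 0.67 ± 0.10, adjusted p = 0.0055). It was lost without LF30min replicate 2, HF30min replicate 1 or HF30min replicate 2 (adjusted p up to 0.076), and its other probe set gave 0.05. Neither Cd36 (adjusted p = 0.066) nor Scd1 (adjusted p = 0.16) was called with the 4 arrays alone.

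Ppara itself had a difference of -0.10 (95% interval -0.28 to 0.09). Plin2, which coats lipid droplets, read 9.75 and 9.76 at LF30min and 9.82 and 9.61 at HF30min, with overlapping arrays and a difference of -0.04 (95% interval -0.23 to 0.15). Pdk4, the kinase that closes the pyruvate dehydrogenase, read 9.45 and 9.40 at LF30min and 9.76 and 9.80 at HF30min, a difference of 0.35 that did not pass (adjusted p = 0.099). Apoa4, the chylomicron apolipoprotein, had a difference of 0.07 (95% interval -0.09 to 0.23).

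On the sugar side, 3 of 15 measured genes were called lower after the HF meal and none higher, where 0.253% of all genes were called lower. There was 1 when any array but HF30min replicate 2 was left out, and none without that array or with the 4 arrays alone. Slc2a5, the fructose carrier GLUT5, read 10.21 and 10.27 at LF30min and 9.68 and 9.63 at HF30min, with 10.39 on both fasting arrays (log2 difference -0.59 ± 0.08, 1.51-fold, adjusted p = 0.0026). The HF30min arrays lay below both other pools. The adjusted p was 0.054 without HF30min replicate 2. Pklr, pyruvate kinase, had a difference of -0.48 ± 0.08 (adjusted p = 0.019) and Tkfc, which phosphorylates the glyceraldehyde made from fructose, one of -0.45 ± 0.08 (adjusted p = 0.028). Neither was called when any 1 of the 4 arrays was left out, with an adjusted p of up to 0.2 and 0.24. The other 2 probe sets of Pklr gave -0.34 and -0.27 and were not called. Slc5a1, the sodium-glucose transporter SGLT1, had a difference of -0.05 (95% interval -0.22 to 0.11), and Txnip, which follows glucose inside the cell, one of -0.24 (adjusted p = 0.36). The second probe set of Txnip gave -0.43 and was not called either (adjusted p = 0.097). Pck1, the gluconeogenic enzyme, was the called gene of 13 in gluconeogenesis and pyruvate fate, where 0.297% of all genes were called higher. It read 8.95 and 9.03 at LF30min and 9.50 and 9.54 at HF30min (log2 difference 0.53 ± 0.10, adjusted p = 0.043), and its call was lost when any 1 array was left out (adjusted p up to 0.29), with the replicate block and with the 4 arrays alone.

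Single genes of other lists passed the test with differences under 2-fold. Among 40 immediate early and feedback genes, Ereg, the growth factor epiregulin (0.73 ± 0.12), and Egr1, a zinc finger factor (0.55 ± 0.09), were higher, and Gadd45g (-0.54 ± 0.11) and Junb (-0.43 ± 0.09) lower, where 0.55% of all genes were called in either direction. Fos, of the same family of early genes, read 11.80 and 11.75 against 11.73 and 11.81, with overlapping arrays and a difference of -0.002 (95% interval -0.17 to 0.17). Fkbp5, a glucocorticoid-induced co-chaperone, was higher (0.56 ± 0.09), as were Slc12a2, the basolateral sodium-potassium-chloride cotransporter (0.63 ± 0.09), and Car4, a carbonic anhydrase (0.67 ± 0.12). Ereg (5.24 and 5.45) and Car4 (5.31 and 5.74) were near background at LF30min. Slc30a10, a manganese exporter of the zinc transporter family (-0.55 ± 0.08), Slc11a2, the iron transporter DMT1 (-0.47 ± 0.08), and Ifit1, an interferon-induced gene (-0.48 ± 0.08), were lower. None of these 10 was called in the fit to the 4 arrays alone, and each call was lost when some single arrays were left out, where the adjusted p reached between 0.09 for Slc12a2 and 0.35 for Gadd45g. For Gadd45g, Junb, Slc30a10, Slc11a2 and Ifit1 this held for each of the 4 arrays, and for Ereg, Egr1, Fkbp5, Car4 and Slc12a2 for LF30min replicate 1, HF30min replicate 1 and HF30min replicate 2. Gadd45g and Junb were also lost with the replicate block. The other 3 probe sets of Slc11a2 gave -0.29 to -0.06 and the other 2 of Slc12a2 gave 0.18 and 0.60, with none called. The second probe sets of Slc30a10 (-0.34) and Car4 (0.51) were not called. Of the other 2 of Fkbp5, 1 at 0.55 was called and 1 near background, at -0.05, was not. Of the 43 lists, 19, with 266 measured genes, had no called member. Their medians lay between -0.13 and 0.14, and they included cholesterol synthesis, the unfolded protein response, the clock, the cell cycle and phase I and II enzymes.

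A few modulated probe sets belonged to no list. Wfdc18, a whey acidic protein family gene, read 6.22 and 5.99 at LF30min and 7.02 and 7.30 at HF30min (log2 difference 1.05 ± 0.20, adjusted p = 0.031). A2ml1, a protease inhibitor of the alpha-2-macroglobulin family, read 4.45 and 4.67 against 5.98 and 5.21, and Slc5a12, a sodium-coupled lactate transporter, 4.12 and 3.80 against 5.09 and 4.95, both near background (adjusted p = 0.034 and 0.019). These were the 3 of the 17 genes whose calls did not hold with single arrays left out. Wfdc18 was not called when any 1 array was left out, A2ml1 not without LF30min replicate 1, LF30min replicate 2 or HF30min replicate 1, and Slc5a12 not without LF30min replicate 2, HF30min replicate 1 or HF30min replicate 2, with an adjusted p of up to 0.27, 0.27 and 0.19. Wfdc18 and A2ml1 were also not called with the 4 arrays alone. The other 14 genes passed at an adjusted p under 0.05 with each of the 4 arrays left out in turn.

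The 6 probe sets that the annotation leaves without a gene included the largest difference of all. Probe set 1422447_at read 7.43 and 7.33 at LF30min and 10.77 and 10.73 at HF30min, with 8.75 and 8.89 in the fasting pool (log2 difference 3.38 ± 0.10, adjusted p = 7.5e-10). Probe set 1420465_s_at read 3.91 and 3.94 at LF30min and 6.70 and 6.59 at HF30min, at least 6.6-fold higher. The lower ones included 1430027_at, at 7.83 and 7.92 against 6.66 and 6.73, and 1454623_at, at 10.68 and 10.66 against 9.61 and 9.62. The probe set shared by several trypsin genes was near background, at 5.78 and 5.88 against 4.53 and 4.88.

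Finally, the difference at 30 min was set beside the difference between the HF and LF pools at the later times, whose arrays are separate. The later calls are those at an adjusted p under 0.05 with no fold minimum. At 1 h, 1 of the 15 higher probe sets was again called higher, where 0.0555% of all were. The unnamed 1420465_s_at was the one. Of the 13 lower probe sets 2 were again called lower, where 0.135% of all were. At 3 h, 11 of the 15 were again called higher, where 0.862% of all were. Of the 13 lower ones 11 were instead called higher and 1, that of Ankrd37, lower, where 0.955% of all were lower. Tested as the difference at 30 min minus the mean of the later differences, 143 probe sets (0.318%) were called, among them 10 of the 15 and 12 of the 13. Since the 28 were chosen by the difference that this contrast contains, nothing is read from their share.

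The groups of genes differed in this course. In the acinar lists the median difference went from -0.75 at 30 min to -0.25 at 1 h and 1.20 at 3 h. At 1 h, 2 of the 34 genes were called lower (0.159% of all genes) and none higher (0.066% of all genes), and at 3 h 31 were called higher (1.19% of all genes). For 27 of the 34 the difference at 30 min was called apart from the later mean, as it was for 0.44% of all genes. Cela3b read 13.21 and 13.25 at LF1h and 13.03 and 12.99 at HF1h, and 12.03 and 12.07 at LF3h and 13.25 and 13.21 at HF3h. Both 1 h pools were thus above all pools at 30 min, and at 3 h the LF pool was low and the HF pool high. Ins2 read 9.26 and 9.28 at LF1h and 9.33 and 9.36 at HF1h, and 6.81 and 7.07 at LF3h and 10.14 and 10.13 at HF3h. Its difference was 0.07 at 1 h and 3.19 at 3 h, nearly the size at 30 min. Iapp likewise went from -0.26 at 1 h to 2.15 at 3 h. None of the parietal and chief cell genes was called at 1 h or 3 h, with medians of -0.19 and 0.13. Atp4a had differences of -0.72 and -0.07 at these times. The 3 Paneth genes went from higher at 30 min to differences of -0.41 for Ang4, -0.37 for Itln1 and -0.36 for Lyz1 at 3 h, of which that of Lyz1 passed the test, as 1.01% of all genes did in this direction. Ankrd37 was lower in the HF pool at each time, by differences of -1.03, -1.29 and -1.27, and Slc2a5 by -0.59, -0.79 and -0.56. Acot1 and Pdk4, small at 30 min, had 1.97 and 1.87 at 3 h. Transcripts of the acinar, islet and gastric lists differed in the same pools as the Paneth, stress, fat and sugar genes above. Their part in the differences of those genes was not tested.

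**Figure D4:**
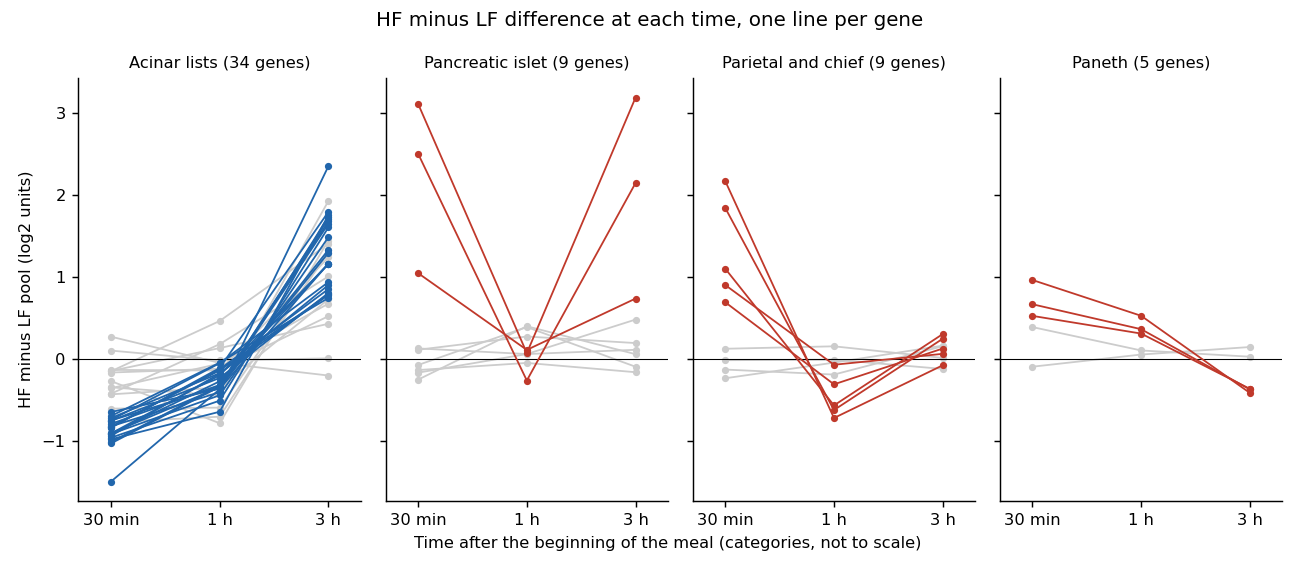
HF minus LF pool in log2 units at 30 min, 1 h and 3 h, 1 line per gene, for the acinar lists (34 genes), the islet list (9), the parietal and chief cell list (9) and the Paneth list (5). Red and blue lines were called higher and lower at 30 min and grey lines were not. Most acinar lines run from below 0 at 30 min to above 0 at 3 h, Ins2 and Iapp lie near 0 at 1 h alone, and the red parietal and chief cell lines are high at 30 min alone.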

How the data were processed

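Duodenal mucosa RNA was pooled from 20 mice per group and hybridized in duplicate to Affymetrix MOE 430 v2.0 arrays. The deposited values were log2 values of 45101 probe sets, which the authors made by background subtraction and normalization with Robust Multiarray Analysis. The log base was taken from that method. These values were used without further scaling. After 64 control probe sets had been set aside, all 14 arrays were fitted in limma 3.58.1 (R 4.3.3) with a mean for each pool, 7 residual and 6.4 prior degrees of freedom, a prior variance of 0.0115 and a median standard error of 0.11 for HF30min minus LF30min. The Benjamini-Hochberg adjustment ran over 45037 probe sets. Modulated means at least 2-fold with an adjusted p below 0.05.

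By the platform annotation 34945 probe sets had a single gene, 34741 of them matched through an Entrez ID, which made 18193 genes. Another 932 had several genes and 9160 had none. A gene of a list was represented by its probe set with the highest mean over all arrays, and a modulated gene by its brightest modulated probe set. Lists were counted at an adjusted p under 0.05, with no set test. A fold is written as at least where the dimmer pool was under a log2 value of 6, and is left out where both were. Genes named were those with a modulated probe set, up to 4 called members of each list with the largest differences, and a set of key genes given whatever their value. Members, lists and tests were chosen with earlier results of these data known. Alternatives were other variance models, scalings, filters and thresholds, the replicate number as a block, only the 4 arrays, and each array left out in turn. The procedure was tested on simulated data. RefSeq promoters were read on GRCm38.p6. Python 3.11.15 and matplotlib 3.10.9 served for the figures.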

Additional observations from a re-analysis of the deposited data

Results flagged for a closer look

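For 34 of the 66 genes named by rule, the HF minus LF difference at 30 min differed from the mean of the differences at 1 h and 3 h in limma's test of that contrast, with 0.44% of all genes called. Of the 66, 55 were called at 30 min, and that difference is part of the contrast, so that the share follows in part from how the genes were chosen. Of the 34, 21 were negative and 13 positive. Values are the contrast in log2 units, for 1 probe set per gene.

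Most of the negative ones were acinar genes. The contrast was -2.18 for Tmed6, -1.8 for Cela3b, -1.7 for Gp2, -1.61 for Sycn, -1.53 for Pnliprp1 and -1.53 for Cckar. It was -1.51 for Serpini2, -1.43 for Klk1, -1.39 for Rnase1, -1.38 for Clps, -1.36 for Cel and -1.3 for Ctrl. For Cpb1 it was -1.2, for Cela1 -1.15 and for Pnliprp2 -1.05. Reg2 stood at -1.95, Hspa1b at -0.87, Pdk4 at -0.82, Tff2 at -0.8, Plin2 at -0.56 and Slc30a10 at -0.55. Other probe sets of some genes were not called for the contrast. The brightest of Hspa1b gave -0.50 (adjusted p = 0.24) and the second of Slc30a10 -0.43 (adjusted p = 0.14). Klk1 had probe sets at -0.63 and -0.13 that were not called, and another at -1.46 that was. A further probe set of Hspa1b, at -0.77, was called. Plin2 and Pdk4 were not called at 30 min and had differences of 0.98 and 1.87 at 3 h.

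Positive contrasts were those of gastric, islet and Paneth genes and a few others. They were 2.57 for Atp4a, 2.03 for Chia1, 1.23 for Pgc and 0.79 for Muc5ac. Islet genes had 1.56 for Iapp, 1.48 for Ins2 and 0.62 for Ppy. Ang4 stood at 0.91, Itln1 at 0.67 and Lyz1 at 0.55. Cd36 was at 0.9, Fkbp5 at 0.79 and Scd1 at 0.78. Among their other probe sets, the second of Ang4 (0.46), 1 of Iapp (0.74) and the second of Scd1 (-0.01) were not called. Nor were probe sets near background of Lyz1 (0.34), Cd36 (0.32) and Fkbp5 (-0.05). Iapp, Lyz1, Cd36 and Fkbp5 each also had another probe set that was called. Scd1 was lower in the HF pool at 1 h (difference -1.66) and higher at 3 h (1.43), so that its mean over the later times hides opposite values. The mean also covers unlike values for Tff2 (-0.44 at 1 h, not called, and 3.32 at 3 h) and Ins2 (0.07 and 3.19). Likewise, the acinar genes listed above were below 0 at 1 h and above 0 at 3 h.

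The contrasts of Lyz1 and Slc30a10 were not called when any 1 of the 4 arrays at 30 min was left out (adjusted p up to 0.16 and 0.19). Those of Hspa1b (without LF30min replicate 2 or HF30min replicate 1, up to 0.12) and Muc5ac (without HF30min replicate 1, 0.051) were lost without the arrays given, as was that of Ang4 (without HF30min replicate 2, 0.069). Ppy and Scd1 were lost without LF30min replicate 2, HF30min replicate 1 or HF30min replicate 2 (up to 0.21 and 0.075), and Itln1 and Cd36 without LF30min replicate 1 or either HF30min array (up to 0.12 and 0.082). Plin2 was lost without either LF30min array or HF30min replicate 2 (up to 0.27).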

How the results depend on the processing

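With 2 arrays of 1 pool on each side, precision is limited to that of the array, and values near background have only a bound. Of 68 called genes followed one by one, none reversed under any alternative run, but 43 lost their call in the fit to only the 4 arrays (adjusted p of 0.055 to 0.37) and 24 to 34 with 1 array left out. The counts of list members under that fit and the block were chosen after seeing the data. Where the arrays of both pools do not overlap, leaving out 1 array cannot reverse a difference. Nothing is therefore read from the lack of reversals. Of the 68 genes, 55 were named by rule and the others after their values had been seen. The 28 modulated probe sets stayed 28 in number with a mean-variance trend, a robust prior or subtracted array medians, with all 28 shared, and became 29 with quantile normalization. The main fit did not use the replicate number as a pairing. The deviations of HF30min and LF30min replicates correlated at 0.074, and those of the other pairs of pools at -0.187 to 0.151. With only 2 numbers, these values cannot show whether the arrays were paired. With the replicate block there were 28 modulated probe sets, all shared, 176 with no fold minimum (199 without the block) and 128 called for the difference from the later times (143 without the block). The block ended the calls of Angptl4, Fabp5, Gadd45g, Junb, Lyz2 and Pck1, array median subtraction those of Angptl4, Junb, Lyz2 and Pck1, and the robust prior those of Fabp5, Gadd45g and Junb. The count was 15 without _s_at, _x_at and _a_at probe sets (7 higher and 8 lower), 128 at a 1.5-fold minimum and 199 with no fold minimum. A filter at a log2 value of 6 left 20, of which 9 were higher, since fewer probe sets were tested. Leaving out 1 array gave 27 to 31 modulated probe sets (13 to 18 higher, 13 to 15 lower), of which 21 to 24 were among the 28. With no fold minimum the count was more open to the setting, at 901 with the trend, 687 with the filter, 105 without the shared probe sets, 51 with only the 4 arrays in the fit, and 80 to 133 with an array left out. The count for the difference from the later times was 613 with the trend, 452 with the filter, 65 without the shared probe sets and 85 to 138 with an array left out. It was 85 without HF30min replicate 1, 89 without HF30min replicate 2 and 90 without LF30min replicate 1. The cause of the changes with the trend was not tested. The median over all genes stayed between -0.0103 and 0.0139.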

Other observations

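Some genes outside the naming rule, chosen after their values had been seen, also differed between the pools. Defa39, a defensin gene of Paneth cells, read 9.70 and 9.60 at LF30min and 10.43 and 10.49 at HF30min (log2 difference 0.81 ± 0.08, adjusted p = 0.00021), and the call held with each of the 4 arrays left out. Olfm4, a marker of crypt base stem cells, had a difference of 0.73 ± 0.11 (adjusted p = 0.0066), and its adjusted p rose to at most 0.088 without LF30min replicate 1 or either HF30min array. Gkn3, a gastrokine, read 10.78 and 10.82 at LF30min and 11.61 and 11.60 at HF30min. Its brighter probe set missed the threshold (difference 0.80 ± 0.17, adjusted p = 0.059), and its other probe set passed (0.93, adjusted p = 0.00051), with 10.21 and 10.18 against 11.09 and 11.16. In the fasting pool the brighter probe set read 4.77 and 5.31, so that Gkn3 was high after both meals.

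Ifit2, an interferon-induced gene, read 6.21 and 6.41 at LF30min and 5.51 and 5.67 at HF30min (difference -0.72 ± 0.10, adjusted p = 0.0033), with an adjusted p of 0.072 without HF30min replicate 1. Ubd, a ubiquitin-like modifier induced by interferon, was at 7.35 and 7.29 against 6.66 and 6.62 (difference -0.68 ± 0.11, adjusted p = 0.013), and was not called when any 1 array was left out (up to 0.14). Neither Ifit2, Ubd nor Olfm4 was called with the 4 arrays alone. Over the 18 measured genes of the interferon and antigen presentation list, 14 were below 0. Of the 18, 1, Ifit1, was called lower, where 0.253% of all genes were. The median was -0.18, or -0.22 to -0.17 with an array left out, against 0.002 over all genes.

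One of the probe sets of Hspa8, the constitutive HSP70, read 7.02 and 7.20 at LF30min and 6.35 and 6.46 at HF30min (difference -0.70), while the other 3, all brighter, gave 0.20 to 0.21. The annotation puts all 4 on the same gene, and what the first one reads was not tested.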
